A study of Mus musculus with 4 samples.

Results

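The effect of trichostatin A (TSA) on promoter acetylation in the sham-operated left ventricle was read from the Sham TSA library over the Sham Veh library, 1 library a side. The members are all promoters of the deposited table whose raw count, averaged over its 4 libraries, reached 10. They number 30721 of 31594 promoters, and the lowest average kept was 10 and the highest left out 9.75. Of the promoters kept, 459 carried an identifier with no gene symbol and were set aside. Each gene was then represented by its promoter with the highest count, which left 22835 genes.

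Left ventricles came from male C57BL6 mice of 10 to 12 weeks, and the labels name no transgene or deletion. After a sham operation or transverse aortic constriction (TAC), which narrows the aorta and loads the ventricle, the mice were given subcutaneous injections 2 times a day over 4 weeks. Sham Veh and TAC Veh received DMSO alone, and Sham TSA and TAC TSA received TSA in DMSO at 0.6 mg per kg per day. Chromatin was precipitated with 1 antibody lot against acetylated histone H3, and reads at each promoter were counted. How many mice went into a library is not given in the sources used here, and the labels of both sham libraries, but of neither TAC library, point to an earlier deposit.

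Histone acetylation loosens chromatin and provides docking sites for bromodomain proteins, and acetylated histone H3 is typical of promoters in use. Histone deacetylases remove the mark, and TSA blocks the zinc-dependent members of that family. In the heart, deacetylase inhibitors of this kind are known for restraining hypertrophic growth, and the enzymes act both on histones and on other proteins. A read count at a promoter is a measure of its acetylation in the whole tissue, not of its transcript.

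The 4 libraries held between 6842296 and 9905553 promoter counts, with 9612616 in Sham Veh and 9905553 in Sham TSA. Counts are given below as scaled counts, that is raw counts divided by a size for the library from trimmed-mean scaling. Each ratio carries an exact 95% interval for counting error only, and with 1 library in each group no replicate check and no test was possible. A promoter is called apart when it differed by 1.5-fold or more between the libraries and the interval left out a ratio of 1. Such a call compares libraries, not conditions. Odorant and vomeronasal receptor genes, most of which are silent outside sensory tissue and which serve as a guide to background, took 0.413% of counts in Sham Veh (95% exact interval 0.408 to 0.418) and 0.418% in Sham TSA (0.414 to 0.423). Their share was 0.495% in TAC Veh and 0.663% in TAC TSA. This share thus differed little within the sham pair and more within the TAC pair. Whether background or acetylation at these promoters differed was not tested.

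The tissue label was checked against cell markers. All 12 cardiomyocyte markers were counted in every library, at a median scaled count of 367 in Sham Veh and 446 in Sham TSA, beside 227 and 229 over all genes and 15.6 and 16.2 over the receptor genes. Markers of endothelial cells stood higher, with medians of 632 and 601, and those of monocytes and macrophages lower, at 116 and 142. The width of the promoter window is not given in the sources used here, so levels of different genes are compared only roughly. In these bulk libraries, fewer cells of a type and less acetylation per cell cannot be told apart.

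After scaling, most promoter ratios of the sham pair lay close to 1. The scaling itself centres the bulk of ratios near 1, so a change in acetylation shared by all promoters could not be seen. The median log2 ratio over 22835 genes was 0.01, and the middle 50% of genes lay between −0.11 and 0.12. Apart were 133 genes higher in Sham TSA (0.582% of those compared) and 133 lower (0.582%). A further 613 genes passed 1.5-fold with an interval that held 1. The ratio was above 1 at 11830 genes (51.8%). By the interval alone, 1188 genes (5.2%) were higher and 871 (3.81%) lower, where counting error by its construction leaves about 5% outside in both directions together. The share outside in either direction rose with reads. It was 3.33% in the lowest decile of genes by mean raw count and 13.3% in the highest, so lists of well-read genes can gather more such intervals.

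Most of these calls were made on few reads. The median raw count, averaged over the libraries, was 41.25 among the higher genes and 46.25 among the lower ones. On each side, 22 of the 133 were odorant or vomeronasal receptor genes, which made up 1278 of the 22835 genes compared. Among the 15669 genes with an average of at least 100 reads, 11 (0.0702%) were apart and higher and 8 (0.0511%) apart and lower. Over all 22835 genes, the same rule on TAC TSA over TAC Veh found 927 higher (4.06%) and 78 lower (0.342%). Of those 927, 179 were receptor genes. Deciles 1, 2 and 3 of genes by mean raw count, 1 being the lowest, held 283, 284 and 169 of them.

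**Figure D1:**
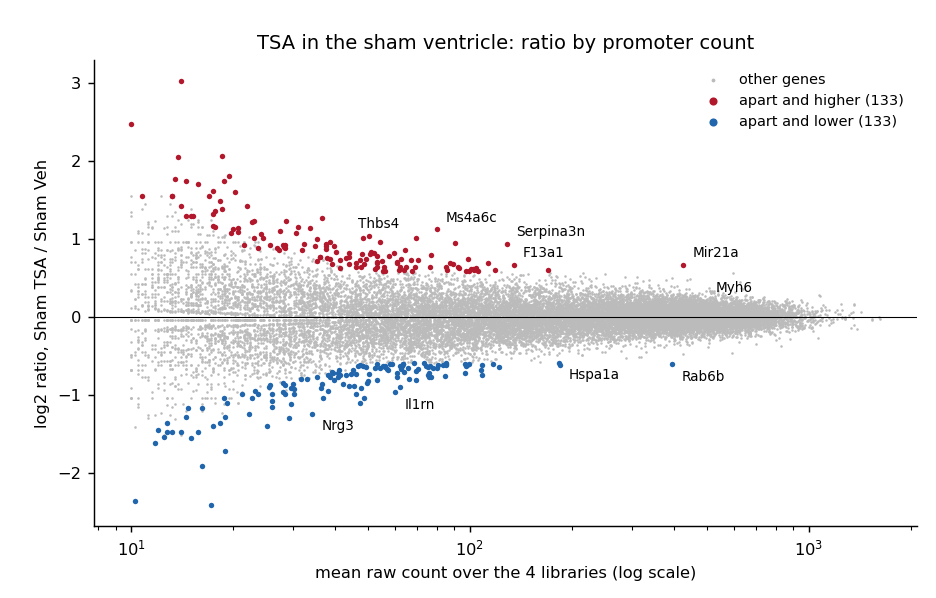
Log2 ratio of scaled counts, Sham TSA over Sham Veh, against the mean raw count over the 4 libraries (log scale), 1 point per gene, with the 133 higher and 133 lower genes that were apart in red and blue. The funnel narrows to the right, and few coloured points lie beyond 100 reads, among them Mir21a, Serpina3n and Rab6b.

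The spread of the ratios can be set beside what counting alone would give. In the lowest decile of genes by count, the SD of the log2 ratios was 1.03 times the SD from counting error, and in the highest decile it was 1.34 times. The corresponding values for the TAC pair were 1.03 and 1.56. Spread above counting error in the sham pair was thus measurable at well-read promoters, at an SD of 0.0977 against 0.0731 in the highest decile. Without replicate libraries, how much of it arose between mice or preparations was not tested.

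**Figure D2:**
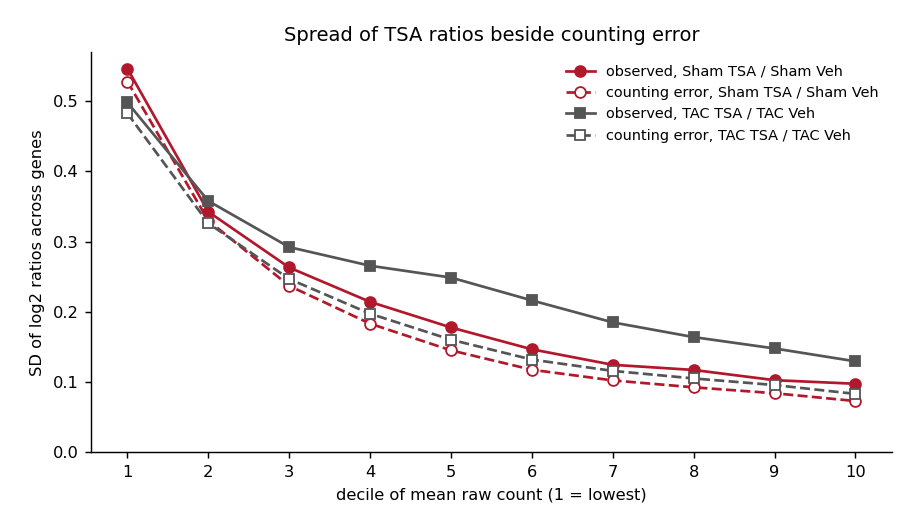
SD of log2 ratios across genes (filled symbols) and the SD that counting error alone gives (open symbols) for each decile of genes by mean raw count, in the sham pair (red circles) and the TAC pair (grey squares). The red lines run close together, at 0.546 and 0.528 in the lowest decile, and the grey lines part further from the middle of the range on.

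Genes of monocytes and macrophages stood highest of the gene lists in Sham TSA. Of 24 markers listed, Cd68 had no entry in the table, and all 23 counted had a ratio above 1, with a median log2 ratio of 0.35 beside 0.01 over all genes. For 9 of the 23 the interval lay above a ratio of 1, and for none below it, beside 5.2% and 3.81% of all genes. Ly86 and Ptprc were apart, 2 of the 23, beside 0.582% of all genes apart and higher. Summed over the list, the scaled count was 2952 in Sham Veh and 3637 in Sham TSA, beside 3504 with TAC Veh and 2794 with TAC TSA, a sham log2 ratio of 0.30 (0.23 to 0.37). No marker was at 0 in any library.

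Ptprc, which encodes the pan-leukocyte phosphatase CD45, had scaled counts of 68.0 and 106 in Sham Veh and Sham TSA, and 97.0 and 61.8 in TAC Veh and TAC TSA. Its sham log2 ratio was 0.64 (0.21 to 1.08). Ly86, which encodes the MD-1 partner of an innate receptor, counted 88.2, 142, 126 and 86.5 in the same order, a sham log2 ratio of 0.69 (0.31 to 1.07). Both genes were high in Sham TSA and TAC Veh and low in Sham Veh and TAC TSA.

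The complement C1q genes of resident macrophages had unequal ratios. C1qb counted 183.7 in Sham Veh and 251.7 in Sham TSA, a log2 ratio of 0.45 (0.19 to 0.72), and C1qa gave 0.48 (0.17 to 0.78). The third subunit gene, C1qc, gave 0.16 with an interval that held 0 (−0.07 to 0.39). The chemokine receptor genes Ccr2 and Cx3cr1, which mark recruited monocytes and resident cells respectively, had log2 ratios of 0.57 (0.03 to 1.13) and 0.43 (0.11 to 0.75). At the low end, Lyz1 was at 0.02, Fcgr1 at 0.06 and Aif1 at 0.09, each with an interval across 0.

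Of 22 chemokine genes, 5 had an interval above 0 in Sham TSA, beside 5.2% of all genes. The list's median was the same as that of all genes. Ccl12, a ligand of Ccr2, counted 59.7 in Sham Veh and 115 in Sham TSA, beside 102 with TAC Veh and 79.1 with TAC TSA, with a sham log2 ratio of 0.95 (0.50 to 1.4). It was the 1 gene apart on the list, and its promoter was lowest in Sham Veh. The other 4 were Ccl2, Ccl7, Ccl9 and Ccl6, which gave 0.45, 0.39, 0.49 and 0.40. The remaining 17 had intervals across 0, among them the inflammatory chemokine genes Ccl8 at −0.22, Ccl3 at 0.19, Ccl4 at −0.18 and Ccl5 at 0.04, and the list's median was 0.01. Ccl19 and Ccl21a fell under the count minimum.

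The Ms4a cluster, a run of membrane protein genes of leukocytes, split among its members. Ms4a6c had the largest ratio among genes that averaged at least 50 reads, with scaled counts of 50.5 and 110.6 in Sham Veh and Sham TSA, and 84.2 and 68.0 in TAC Veh and TAC TSA. Its sham log2 ratio was 1.13 (0.66 to 1.62). Ms4a4c was apart on fewer reads, at 15.6 and 36.9 in the sham pair, a log2 ratio of 1.24 (0.39 to 2.15). Ms4a6b gave 0.55 (0.22 to 0.88), and the other 12 of the 15 counted had intervals across 0, among them the B cell gene Ms4a1 at 0.03. The list thus had 2 genes apart and higher and 3 intervals above 0, beside 0.582% and 5.2% of all genes. Its median was 0.09, and 5 of the 15 ratios were below 1. Ms4a4a had no entry in the table.

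The 11 genes that were apart and higher on at least 100 reads had no list in common. Wdr63 at 0.62, Cmah at 0.62, Kri1 at 0.60 and Serpinb8 at 0.59 were among them. So was F13a1, which encodes the clotting factor XIII subunit made by macrophages. It counted 112 in Sham Veh and 179 in Sham TSA, beside 125 with TAC Veh and 111 with TAC TSA, a sham log2 ratio of 0.67 (0.34 to 1.01). It is the neighbour of Ly86, and these 2 formed 1 of 7 pairs of neighbouring genes that were apart in the same direction. Alox5ap, needed for leukotriene synthesis, counted 137.8, 208.5, 179.3 and 143.4 in the same order, a sham log2 ratio of 0.60 (0.30 to 0.90). Just under 100 reads, P2ry12, a purine receptor of platelets and microglia, counted 78.1, 130.3, 105.8 and 70.5, a sham log2 ratio of 0.74 (0.34 to 1.14). Sham Veh was the lowest or next to lowest of the 4 libraries at F13a1, Alox5ap and P2ry12. These 3 genes are active in leukocytes, and the part that the higher macrophage marker sum has in their ratios was not tested.

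Acute phase and complement genes gave the call with the interval furthest from no change among well-read promoters. Serpina3n, a secreted inhibitor of serine proteases induced in inflammation, had scaled counts of 79.0 and 152 in Sham Veh and Sham TSA, and 173 and 101 in TAC Veh and TAC TSA. The sham log2 ratio was 0.94 (0.56 to 1.33). C3, the central complement component, gave 0.57 (0.29 to 0.84), which is under 1.5-fold. Ceruloplasmin (Cp) gave 0.44 (0.22 to 0.65) and Saa2 0.54 (0.14 to 0.95). The neutrophil granule gene Elane was lower at −0.33 (−0.63 to −0.02). Over the 19 genes counted of this list the median was 0.05, with 12 above a ratio of 1, while the ratio of the sums was 0.19 (0.11 to 0.28). Of the 19, 4 had an interval above 0 and 1 below it, beside 5.2% and 3.81% of all genes. Serpina3n was the 1 gene apart, beside 0.582% of all genes apart and higher. Ly6g and Serpina3g had no entry, and the neutrophil genes S100a8 and S100a9 were at −0.22 and 0.20 with intervals across 0.

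Promoter sequences of genes that carry these calls are shown. Whether they match the stretches at which acetylation was counted is not known. The letters are RefSeq's for build GRCm38.p6, from 250 bases before to 50 after the start of transcription, and are not the authors' windows, which were set on build mm9. Capitals mark the ETS core AGGAAG on either strand, the letters that PU.1 and related factors of myeloid cells can bind, chosen after the sequences had been seen. Of 20760 listed promoters, 33.6% hold it.
Ms4a6c (chr19:11469118-11469417, plus strand): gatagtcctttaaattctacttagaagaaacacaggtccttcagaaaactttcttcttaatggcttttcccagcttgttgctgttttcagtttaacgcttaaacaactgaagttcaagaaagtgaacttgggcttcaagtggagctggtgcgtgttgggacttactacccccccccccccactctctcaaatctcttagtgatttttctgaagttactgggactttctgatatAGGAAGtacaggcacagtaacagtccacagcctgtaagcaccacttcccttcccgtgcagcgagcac
Ly86 (chr13:37345095-37345394, plus strand): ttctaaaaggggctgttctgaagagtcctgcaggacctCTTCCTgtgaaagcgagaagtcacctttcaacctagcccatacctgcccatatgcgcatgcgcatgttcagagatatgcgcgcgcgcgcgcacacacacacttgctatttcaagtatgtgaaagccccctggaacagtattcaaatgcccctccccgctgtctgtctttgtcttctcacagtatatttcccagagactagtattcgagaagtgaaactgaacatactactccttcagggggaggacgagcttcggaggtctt
Serpina3n (chr12:104406458-104406757, plus strand): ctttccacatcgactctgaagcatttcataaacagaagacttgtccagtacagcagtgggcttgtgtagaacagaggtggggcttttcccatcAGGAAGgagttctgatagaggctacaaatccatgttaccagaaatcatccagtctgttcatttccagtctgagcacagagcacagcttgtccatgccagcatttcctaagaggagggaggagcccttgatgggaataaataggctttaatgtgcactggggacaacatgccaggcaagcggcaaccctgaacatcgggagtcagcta
The match begins 17 bases before the start in Ms4a6c, 212 before it in Ly86 and 157 before it in Serpina3n. A motif held by this large a share of promoters sets none of the 3 apart, and a match of letters is no evidence of binding.

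Among 1051 microRNA genes, 3 were apart and higher and 5 apart and lower, on either side a smaller share than the 0.582% of all genes. Mir21a, the gene of a microRNA abundant in fibroblasts and macrophages of the stressed heart, was the best-read promoter apart in either direction, and it lies at the end of Vmp1, whose reads may add to its count. Its scaled count was 319 in Sham Veh and 509 in Sham TSA, beside 521 with TAC Veh and 320.2 with TAC TSA, and its sham log2 ratio was 0.67 (0.48 to 0.87). Mir223, the gene of a microRNA of myeloid cells, counted 36.7 and 71.9 in Sham Veh and Sham TSA, and 67.6 and 34.6 in TAC Veh and TAC TSA, a sham log2 ratio of 0.97 (0.40 to 1.55). Its neighbour F630028O10Rik gave 1.04 (0.47 to 1.63), and promoters this close can share reads. At Mir21a and Mir223, Sham TSA and TAC Veh were the high libraries.

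The mature products of these genes are shown with the seed, bases 2 to 8, in capitals, since the seed decides which transcripts a microRNA pairs with. Coordinates are RefSeq's for GRCm38.p6.
mmu-miR-21a-5p (chr11:86584120-86584141, minus strand): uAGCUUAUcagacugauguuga
mmu-miR-21a-3p (chr11:86584082-86584103, minus strand): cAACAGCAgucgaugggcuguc
mmu-miR-223-3p (chrX:96242884-96242905, plus strand): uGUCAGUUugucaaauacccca
mmu-miR-223-5p (chrX:96242842-96242864, plus strand): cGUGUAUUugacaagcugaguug
No seed is shared among the 4. The remaining microRNA gene that was apart and higher was Mir8110 at 0.61, and the 5 lower ones were Mir6241 at −1.03, Mir599 at −0.72, Mir7241 at −0.69, Mir299a at −0.63 and Mir6416 at −0.62, all on scaled counts under 100. These names, other than Mir6241, were picked after their values had been seen.

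**Figure D3:**
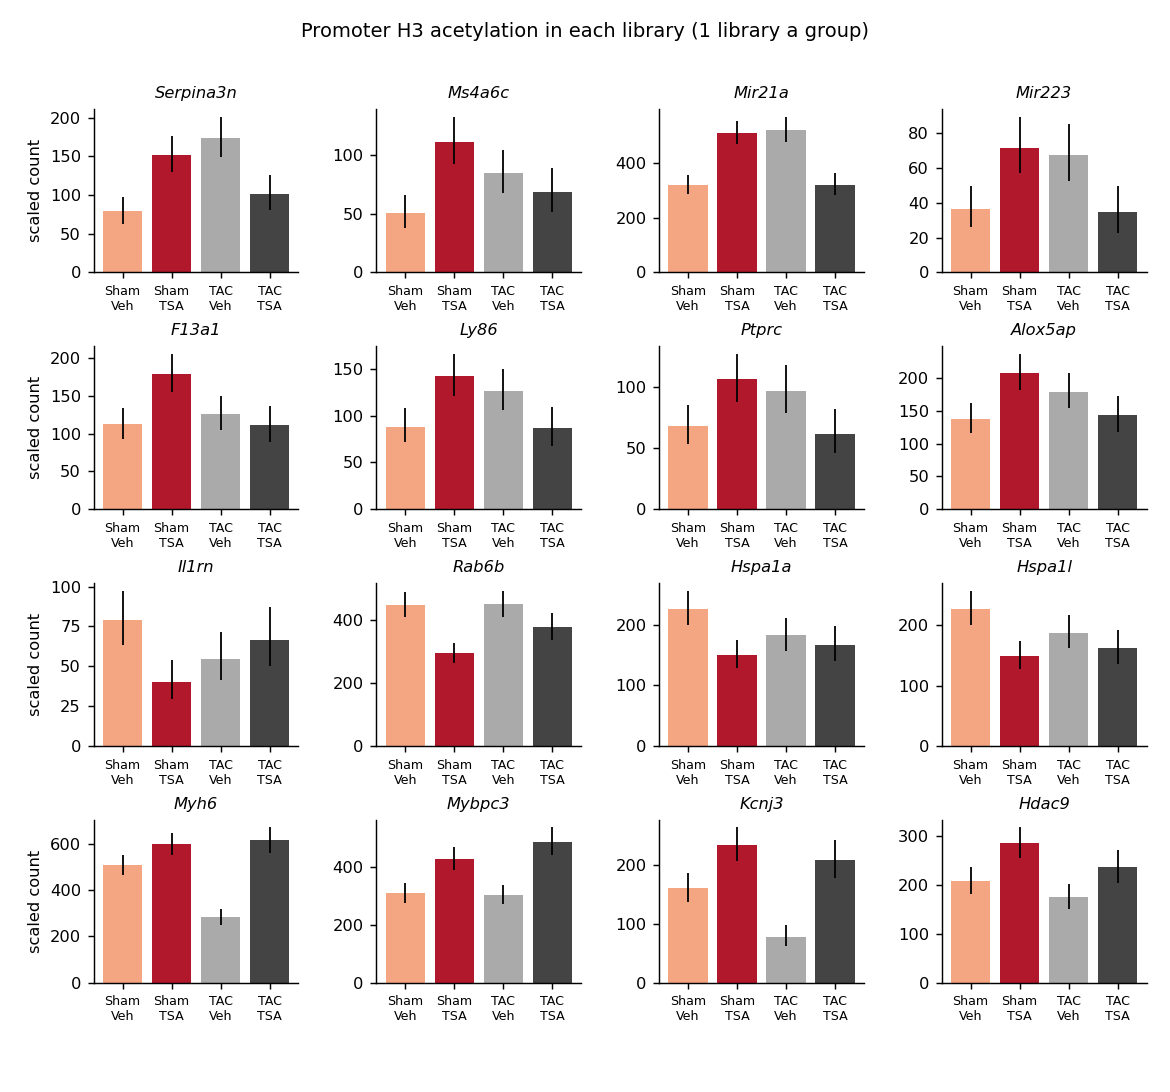
Scaled counts of 16 promoters in each library, 1 library a group, with bars from 0 and error bars for the 95% exact counting interval. In the top 2 rows Sham TSA stands above Sham Veh, in the third row below it, and in the bottom row of muscle genes and Hdac9 above it by less than 1.5-fold.

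Contractile genes of cardiomyocytes were higher in Sham TSA by a small amount, with none apart. Of 25 sarcomere and Z-disc genes, 21 had a ratio above 1, and the median log2 ratio was 0.16. The interval lay above a ratio of 1 for 10 and below it for 1, beside 5.2% and 3.81% of all genes. The ratio of the summed counts was 0.15 (0.11 to 0.19), and for the 12 cardiomyocyte markers, all of which are also on other lists, it was 0.19 (0.14 to 0.25). The summed scaled count of those markers was 4292 in Sham Veh and 4902 in Sham TSA, beside 2995 with TAC Veh and 4924 with TAC TSA, and whether the share of cardiomyocyte chromatin differed was not tested.

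Mybpc3, which encodes cardiac myosin-binding protein C, counted 309.6 and 429 in Sham Veh and Sham TSA, and 304 and 487 in TAC Veh and TAC TSA. Its log2 ratio of 0.47 (0.27 to 0.68) led the list. Myom2 of the M-band gave 0.42 (0.14 to 0.71), titin (Ttn) 0.40 (0.17 to 0.62) and the thin-filament gene Lmod2 0.39 (0.19 to 0.59). Myh6, the fast myosin heavy chain of adult mouse heart, counted 508, 598, 283 and 614 in the same order, a sham log2 ratio of 0.23 (0.07 to 0.40), with TAC Veh low and the other 3 libraries near each other. Myoz2 of the Z-disc went the other way at −0.37 (−0.66 to −0.09).

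Among 26 genes of calcium handling and ion channels, 9 had an interval above 0 and 1 below, with a median of 0.10. Over all genes, 5.2% had an interval above 0 and 3.81% below. Kcnj3, a subunit of the acetylcholine-gated potassium channel, counted 160.8 in Sham Veh and 234 in Sham TSA, beside 78.4 with TAC Veh and 209 with TAC TSA, a sham log2 ratio of 0.54 (0.26 to 0.82). Triadin (Trdn) gave 0.41, the sodium-calcium exchanger Slc8a1 0.39, Kcnh2 0.38 and phospholamban (Pln) 0.36, all with intervals above 0. The calcium pump Atp2a2 and the release channel Ryr2 were at 0.03 and 0.08, with intervals across 0.

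Genes of hypertrophic stress gave no common direction. The natriuretic peptide genes Nppa and Nppb stood at −0.34 (−0.77 to 0.08) and 0.44 (0.09 to 0.80), and Myh7, the slow myosin gene of the fetal heart, at 0.11 (−0.16 to 0.39). Mef2c, a muscle transcription factor, was apart and lower at −0.68 (−1.36 to −0.01) on 45.9 and 28.8 scaled counts. Gata4 and Tbx5 gave 0.21 (0.07 to 0.36) and 0.24 (0.02 to 0.45). The list of 17 had a median of 0.03.

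Fuel genes were higher by a small amount in fatty acid and glucose use. Of 26 fatty acid oxidation genes, 23 had a ratio above 1 and 7 an interval above it, beside 51.8% and 5.2% of all genes. The median was 0.12 and the ratio of sums 0.12 (0.09 to 0.15). Cd36, the fatty acid transporter, gave 0.27 (0.08 to 0.45), and Ucp3, a mitochondrial carrier, was lower at −0.33 (−0.55 to −0.11). Of 18 genes of glucose uptake and glycolysis, 15 were above a ratio of 1, with a median of 0.11, and Slc2a4, the insulin-responsive glucose transporter, gave 0.24 (0.06 to 0.43). Oxidative phosphorylation genes had a median of 0.01, the same as all genes.

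Of the lists of 33 genes or fewer, the heat shock genes had the most intervals below 0. Of 25 counted, 10 had an interval below a ratio of 1 and 2 above it, beside 3.81% and 5.2% of all genes. They were well read, at a median scaled count of 612 in Sham Veh beside 227 over all genes. In the highest decile of genes by mean raw count, 13.3% of intervals lay outside in either direction. The median was −0.05 and the ratio of sums −0.08 (−0.11 to −0.04). Hspa1a, the stress-inducible Hsp70, counted 226 and 150.1 in Sham Veh and Sham TSA, and 182 and 167 in TAC Veh and TAC TSA, a sham log2 ratio of −0.59 (−0.88 to −0.30). The neighbouring Hspa1l gave −0.61 (−0.90 to −0.32) on nearly the same counts, so the pair, both among the 10 above, counts as 1 measurement. Hspa1b, a near-identical copy of Hspa1a whose reads may be split between the copies, gave −0.13 (−0.34 to 0.08).

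Other heat shock genes were split. Hsp90ab1, the constitutive Hsp90, counted 946 in Sham Veh and 734 in Sham TSA, with 815 and 789 in TAC Veh and TAC TSA, a sham log2 ratio of −0.37 (−0.50 to −0.23). The co-chaperone genes Hsph1, Dnajb1 and Dnaja1 gave −0.31, −0.22 and −0.20, all with intervals below 0. Hsf1, the heat shock transcription factor, was higher at 0.20 (0.06 to 0.35), as was the muscle small heat shock gene Hspb3 at 0.52 (0.23 to 0.81). The small heat shock genes Hspb1, Hspb2, Hspb6, Hspb7, Hspb8 and Cryab lay between −0.05 and 0.04.

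The Hspa1a promoter is shown because it is the regulatory region of the stress-inducible Hsp70, a chaperone gene that was apart and lower. It lies at chr17:34972107-34972406 on the minus strand of GRCm38.p6, in RefSeq's letters, and capitals mark the heat shock element core GAANNTTC, searched on both strands and chosen after the sequence had been seen. Of 20760 listed promoters, 6.9% hold it. The match begins 104 bases before the start.
Hspa1a: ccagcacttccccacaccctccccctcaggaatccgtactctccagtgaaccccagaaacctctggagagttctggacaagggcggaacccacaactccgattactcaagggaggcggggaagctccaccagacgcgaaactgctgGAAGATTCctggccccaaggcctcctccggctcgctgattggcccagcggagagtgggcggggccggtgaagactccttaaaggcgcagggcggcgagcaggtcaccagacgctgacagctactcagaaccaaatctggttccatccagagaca

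Other promoters lower in Sham TSA had no list in common. Rab6b, a small GTPase gene of Golgi transport, was the best read of them, with 449 in Sham Veh and 295 in Sham TSA, beside 452 with TAC Veh and 378 with TAC TSA, a sham log2 ratio of −0.61 (−0.81 to −0.40). Il1rn, the gene of the interleukin 1 receptor antagonist, counted 79.0, 40.4, 54.9 and 66.8, a sham log2 ratio of −0.97 (−1.52 to −0.43). Sham TSA was the lowest of the 4 libraries at both. Il1rn was the 1 gene apart among 16 of the interleukin 1 and inflammasome list, whose median was 0.04, and at another of its promoters the counts were 51 and 58.

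Well-read and lower were also Necab1 at −0.74, the developmental regulators Eya2 at −0.68 and Foxa2 at −0.65, and Zfp185 and Ssc4d at −0.61 each. At another Eya2 promoter the counts were 93 and 105, a log2 ratio of 0.14 (−0.27 to 0.56). Nrg3, a neuregulin of the nervous system, gave −1.24 (−2.04 to −0.50) on 46.9 and 19.8 scaled counts. The remaining genes among the 10 furthest on either side rested on few reads, such as Vmn2r-ps60 at 2.8 and 22.5 and Olfr576 at 23.9 and 4.5.

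The genes of the drug's own targets moved little. The 11 zinc-dependent deacetylase genes had a median log2 ratio of 0.05, and 10 of them lay between −0.05 and 0.15 with intervals across 0. Hdac9, a class IIa member of muscle, counted 208 and 285 in Sham Veh and Sham TSA, and 175 and 236 in TAC Veh and TAC TSA, a sham log2 ratio of 0.46 (0.21 to 0.71). Cdkn1a, the p21 gene that deacetylase inhibitors raise in cultured cells, counted 507, 609, 615 and 575 in the same order and gave 0.26 (0.10 to 0.43). Of the 14 genes listed for such induction, 9 had a ratio above 1 and 4 an interval above it, beside 51.8% and 5.2% of all genes. None of the 14 was apart, and the median was 0.05. Neuronal genes held silent by the repressor REST, which works through deacetylases, had a median of −0.05 over 20 genes with every interval across 0.

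Interferon-stimulated genes had 8 of 24 intervals above 0 and none below, beside 5.2% and 3.81% of all genes. Ifit3 at 0.34, Ifit2 at 0.32 and Rtp4 at 0.31 were in the lead, and the median was 0.08. Extracellular matrix genes leaned the other way with 24 of 33 ratios below 1, beside 11005 of 22835 over all genes. Their median was −0.05, but Thbs4, a matricellular thrombospondin, was apart and higher. It counted 37.7 in Sham Veh and 76.4 in Sham TSA, beside 96.0 with TAC Veh and 65.5 with TAC TSA, a sham log2 ratio of 1.02 (0.47 to 1.59). None of 12 fibroblast markers had an interval away from 0. Endothelial markers had 12 of 16 ratios below 1, beside 11005 of 22835 over all genes, and a median of −0.07. Intervals lay below 0 for 2 of them and above it for none, beside 3.81% and 5.2% of all genes. The 2 were Cldn5 at −0.32 (−0.47 to −0.17) and Nos3 at −0.20 (−0.38 to −0.02). Erg had the largest ratio in size and went the other way, at 0.43 (−0.11 to 0.99). Lymphocyte markers gave −0.08 over 21 genes with all intervals across 0.

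**Figure D4:**
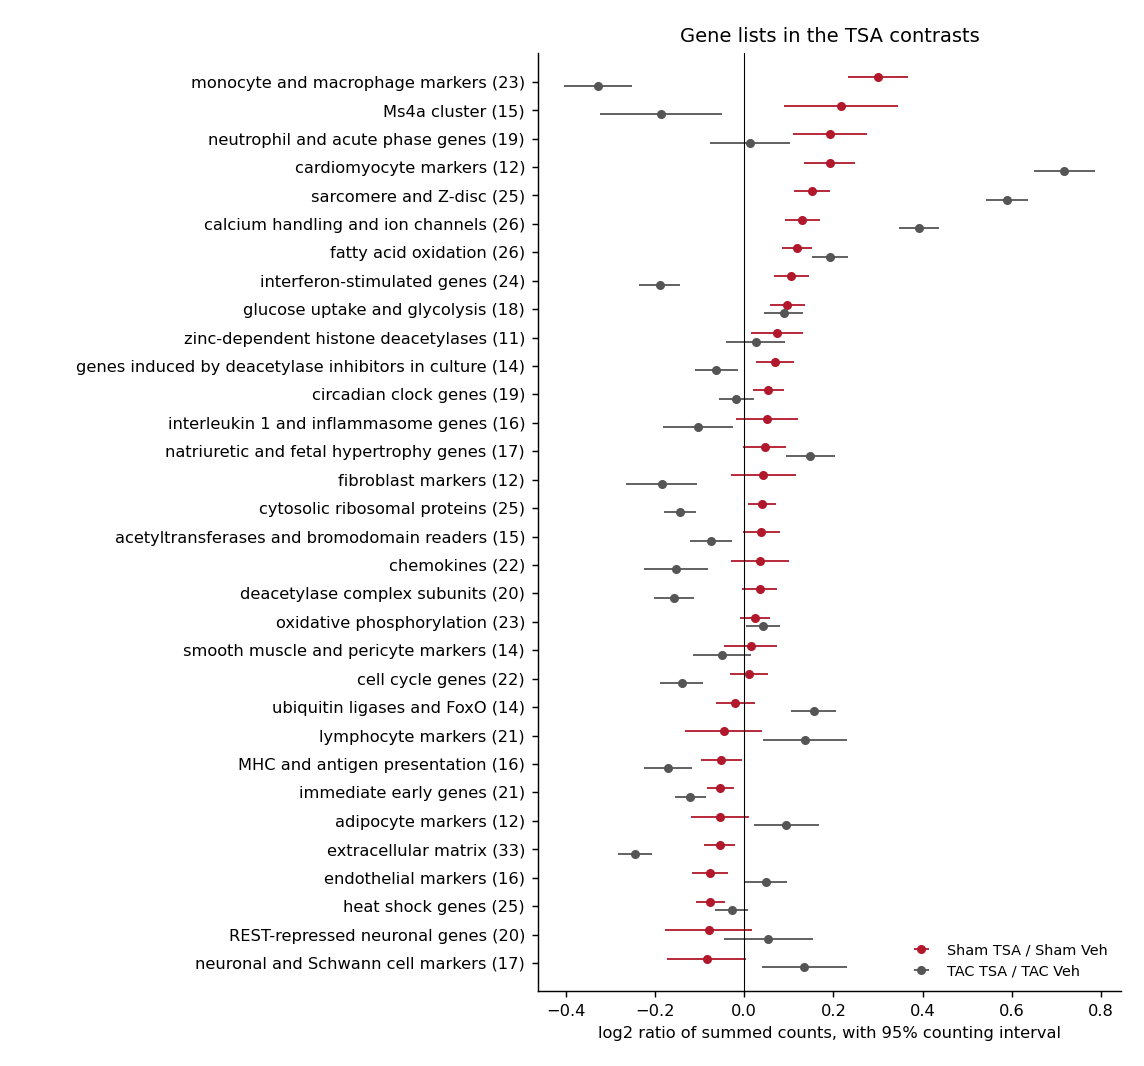
Log2 ratio of summed counts for each gene list (number of genes in brackets) in Sham TSA over Sham Veh (red) and TAC TSA over TAC Veh (grey), with 95% counting intervals. The macrophage markers lie furthest right in red, at 0.30, and furthest left in grey, at −0.33, while the cardiomyocyte and sarcomere lists lie right of 0 in both.

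The drug's ratio in the loaded heart, TAC TSA over TAC Veh, shares no library with the sham pair and so serves as a separate reading. Across 22835 genes, Pearson's r between both log2 ratios was 0.0046 and Spearman's rho −0.025, and 48.7% of genes had the same sign. At an average of at least 100 reads, r was −0.0007 and rho −0.031 over 15669 genes. These values describe genes of 4 libraries that share tissue and assay, and genes are not independent replicates.

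Of the 133 genes higher in Sham TSA, 90 (67.7%, exact interval 59.0 to 75.5) were also above 1 in the TAC pair, and of the 133 lower, 33 (24.8%, 17.7 to 33.0) were also below 1. Both shares turned with the scaling: they were 37.6% and 66.7% under receptor scaling and 43.6% and 50% under loess scaling. They also follow the count of reads. Among all genes under 100 reads, 77.6% were above 1 in the TAC pair, where the receptor genes' share of counts differed too, and of the 122 sham-higher genes in that range 72.1% were. Of the 125 sham-lower genes under 100 reads, 23.2% were below 1 in the TAC pair, beside 22.4% of all such genes. At 100 reads or more, 2 of the 11 higher genes were above 1 in TAC, where 37.7% of all such genes were, and 4 of the 8 lower ones were below 1, where 62.3% of all such genes were.

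Apart in both pairs were 17 genes in the same direction, 16 of them higher, and 19 in opposite directions. In the TAC pair, 16 of the 133 sham-higher genes were apart and higher and 7 apart and lower. For the 133 sham-lower genes these counts were 12 and 1. Over all genes, 4.06% were apart and higher in the TAC pair and 0.342% apart and lower. Most sham calls lay at low counts, where TAC calls were more frequent. Deciles 1, 2 and 3 of genes by mean raw count held 2284, 2283 and 2284 genes. Of these, 283, 284 and 169 were apart and higher in the TAC pair, and 1, 16 and 15 apart and lower. Ttc30a2, which encodes a protein of cilia, gave 0.84 in sham and 0.82 in TAC, and Hsbp1l1 0.65 and 0.74, both on fewer than 100 scaled counts in every library. Gm5126 was lower in both, at −0.67 and −0.71. Of the 19 in opposite directions, 7 were higher in sham and lower in TAC, and 12 went the other way. Among the 7 were Serpina3n at 0.94 and −0.77, Mir21a at 0.67 and −0.70, and Mir223 at 0.97 and −0.97. So were P2ry12 at 0.74 and −0.59, and Ptprc at 0.64 and −0.65.

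The lists differed in how they compared. Of the 23 macrophage markers, all were above 1 in sham. In TAC 20 were below 1, where 50.2% of all genes were above it, and there the sum gave −0.33 (−0.40 to −0.25). The 25 sarcomere genes were on the same side in both, with 21 above 1 in sham and 24 in TAC. Their TAC sum of 0.59 (0.54 to 0.64) was larger than the sham 0.15, by an amount that depended on the scaling. The list's TAC median of 0.59 was 0.21 under receptor scaling, and its sham median of 0.16 was 0.13. Heat shock genes had a TAC median of −0.04, and Hspa1a, Hsp90ab1 and Dnajb1, lower in sham, were at −0.13, −0.05 and 0.03 there with intervals across 0. Hspb3 was higher in both, at 0.52 and 0.78. Whether a difference between the pairs exceeds the variation among mice was not tested, and any difference in how the sham and TAC libraries were made cannot be told apart from surgery.

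**Figure D5:**
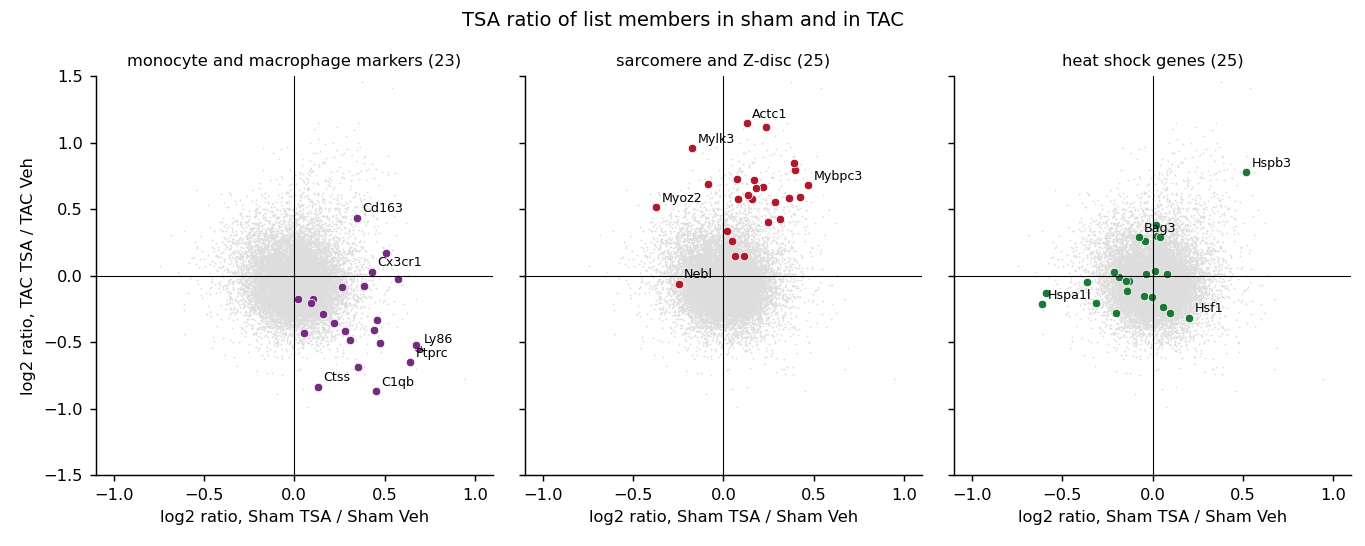
TSA log2 ratio in sham (horizontal) against that in TAC (vertical) for 23 macrophage markers, 25 sarcomere genes and 25 heat shock genes, over all genes of at least 100 mean reads in light grey. The macrophage markers lie right of 0 and mostly below it, the sarcomere genes mostly in the upper right, and the heat shock genes around the centre, with Hspa1l at the left and Hspb3 at the upper right.

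Some genes with more than 1 distinct promoter differed between them. Over 1814 such genes, the log2 ratios of the first 2 promoters correlated at r = 0.48, in windows that can overlap. Schip1, which encodes a scaffold protein of the cell membrane, had the widest separation. Its promoter NM_001282045 was read 206 times in Sham Veh and 288 in Sham TSA, a log2 ratio of 0.45 (0.19 to 0.72). The promoter NM_013928 was read 206 and 157 times, a ratio of −0.42 (−0.73 to −0.12). Usp2, Ncoa4, Sorbs3 and Nin were next, with gaps between the intervals of their promoters of at most 0.083.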

How the data were processed

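The authors deposited raw read counts per promoter, whole numbers that were not normalised, with 1 column for each of 4 libraries. BWA 0.5.9, MACS 1.4.1 and mm9 are listed in the submitters' processing notes, with no roles. The sources used here do not give the promoter window, strand, duplicate handling or input subtraction. The deposited region lists have no comparison within the sham pair and were not used here, so the authors' score per region, also deposited, entered no value.

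Identifiers were matched to RefSeq symbols of GRCm38.p6 (31115 of 31594, 98.5%), and 1.11% of counts lay on unmatched ones. Counts were scaled by TMM over 4 libraries (edgeR 4.0.16, R 4.3.3), with no model fitted. Ratios carry exact conditional (Clopper-Pearson) 95% intervals (scipy 1.17.1), which cover counting error only, since PCR copies were not marked. Alternatives were library totals, DESeq2 1.42.0 size factors, scaling to receptor promoters, loess (span 0.3), other count minimums, folds and intervals. The steps were checked on simulated counts.

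The members and gene lists were chosen with earlier results of these data known. Named genes were the 10 furthest on either side by the nearer interval bound, up to 15 of these with at least 100 mean reads that were apart, the members of each list apart or with the largest ratios (up to 4), genes apart in both TSA contrasts, Myh6, Nppa, Nppb, Cdkn1a, the deacetylases and 5 genes with several promoters; further list members are named to describe a list, and others where the text says so. Some genes that the rule names are not reported here. Promoter sequences were listed for 74.9% of the genes, under the 80% needed, so a comparison of base composition was void.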

Additional observations from a re-analysis of the deposited data

Results flagged for a closer look

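Of the 19 genes apart in both pairs in opposite directions, 7 were higher and 12 lower in Sham TSA, and 10 are given here. Higher in Sham TSA and lower in TAC TSA were Serpina3n (log2 ratio 0.94 in sham and −0.77 in TAC), Mir21a (0.67 and −0.70), Mir223 (0.97 and −0.97), its neighbour F630028O10Rik (1.04 and −1.09), P2ry12 (0.74 and −0.59), Ptprc (0.64 and −0.65) and Serpina3i (0.61 and −0.77). Lower in Sham TSA and higher in TAC TSA were Iltifb (−1.08 and 1.26), Vmn2r25 (−2.35 and 1.73) and Kcnk18 (−0.71 and 0.68), all on few reads. With 1 library a group, the difference between the pairs was not tested.

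The summed ratios of some gene lists had intervals on opposite sides of 0 in sham and TAC. They were the monocyte and macrophage markers (0.30 in sham and −0.33 in TAC), the Ms4a cluster (0.22 and −0.19), the interferon-stimulated genes (0.11 and −0.19), the endothelial markers (−0.076 and 0.05), the genes induced by deacetylase inhibitors in culture (0.068 and −0.062) and the cytosolic ribosomal proteins (0.041 and −0.14). The last 3 lists lay near 0 in sham. Their sides depended in part on the scaling: the TAC median of the endothelial markers, 0.04, was −0.34 under receptor scaling, below 0 as in sham, and that of the genes induced in culture, −0.06, was 0.01 under loess scaling, above 0 as in sham. These differences were not tested either.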

How the results depend on the processing

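No paired analysis was possible because each group has 1 library. The count of promoters apart depended on the thresholds. At a mean count of at least 50, 53 were higher and 58 lower, and at 100, 11 and 8 (12 and 7 with loess scaling, a combination chosen after seeing the data). A 1.3-fold threshold gave 329 and 288, a 2-fold one 45 and 32, and a 99% interval 62 and 53. Other scalings, no count minimum, every distinct promoter and leaving out receptor genes gave 109 to 152 higher and 111 to 171 lower. The rho between the sham and TAC ratios (−0.025) was −0.0082 with loess scaling, −0.046 at 50 reads, −0.038 without receptor genes (chosen after seeing the data) and −0.011 at 100 reads with loess. The share of sham calls with the same sign in TAC (46.2%) was 55.4% under receptor scaling, 39.6% at 50 reads, 31.6% at 100 and 36.8% at 100 with loess. All 158 named genes kept their direction under the 5 other scalings. Of the 59 that were apart, Serpinb8 lost its call under 3 of them, genes such as Kri1, Alox5ap and Serpina3i under receptor scaling, and Zfp185, Mef2c and Skint5 under loess. Scaling moved the sham median by at most 0.03 and the TAC median by 0.38 (receptor scaling, downward). Depth limits calls to large ratios below 100 reads.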

Other observations

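Beyond the lists, several leukocyte genes were apart and higher in Sham TSA; they were picked after their values had been seen. Sash3, a lymphoid adaptor, counted 46.9 and 85.4 in Sham Veh and Sham TSA, and 70.5 and 49.4 in TAC Veh and TAC TSA, a sham log2 ratio of 0.87 (0.36 to 1.39). Marchf1, a ubiquitin ligase of antigen-presenting cells, gave 0.79 (0.34 to 1.25), the endosomal receptor gene Tlr8 0.81 (0.23 to 1.42) and Hpgds, a prostaglandin synthase, 0.64 (0.23 to 1.05). Lower were the neutrophil protease gene Ctsg at −0.82 (−1.45 to −0.20) and Fcnb, a ficolin, at −0.65 (−1.19 to −0.13). Of the 21 lymphocyte markers, 12 had a ratio below 1. Of 16 genes of MHC and antigen presentation, 9 had a ratio below 1. The interval lay above 0 for 1 of these 16 and below it for 2, beside 5.2% and 3.81% of all genes. The ratio of their sums was −0.05 (−0.10 to −0.005).

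Well-read endothelial or progenitor genes outside the lists, also picked after their values had been seen, included some that were lower with intervals below 0. Aplnr, the apelin receptor, counted 695 in Sham Veh and 503 in Sham TSA, beside 574 with TAC Veh and 583.5 with TAC TSA, a sham log2 ratio of −0.46 (−0.62 to −0.30). The water channel Aqp1 gave −0.34 (−0.49 to −0.20) and the receptor Kit −0.44 (−0.69 to −0.20). At Aplnr and Aqp1, Sham Veh was the highest of the 4 libraries.

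Among well-read genes under 1.5-fold, Bcl3, a cofactor of NF-kappaB, counted 367.5, 509.7, 488 and 345 in the order Sham Veh, Sham TSA, TAC Veh, TAC TSA, a sham log2 ratio of 0.47 (0.28 to 0.66) beside −0.50 in TAC. Lrg1, a secreted glycoprotein, gave 0.49 (0.30 to 0.67) in sham and 0.55 (0.34 to 0.76) in TAC.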
